A study of Rattus norvegicus with 36 samples.

Results

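Iron uptake, storage and export, heme synthesis and breakdown, and beta globin were followed through 8 genes in rat mammary gland: Tfrc, Slc11a2, Fth1, Slc40a1, Alas1, Alas2, Hbb and Hmox1. They were read by 12 of the 31099 probe sets of the array, found by their gene symbol. The genes were selected on their measured levels over the 12 groups of these same arrays, so every difference given for them is a description and carries no p-value. By annotation, 7 of the 8 genes have a probe set of their own, and the probe set of Fth1 is also annotated to the pseudogene Fth1-ps5. In Cop rats 6 h after N-nitrosomethylurea (NMU), Hbb was 4.18-fold, Hmox1 3.32-fold and Slc40a1 1.64-fold above saline controls, and Tfrc was 2.09-fold, Alas1 1.60-fold and Slc11a2 1.36-fold below them. Alas2 was also above its controls, which were too dim there for a fold to be given. In F344 rats, with each gene read by its brightest probe set, the largest differences were a 4.79-fold lower Hbb at 1 d and a 3.15-fold lower Tfrc at 30 d.

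Mammary glands came from Cop and F344 rats that received NMU, an alkylating carcinogen, or saline vehicle at 55 d of age. They were collected 6 h, 1 d or 30 d later, which makes 12 groups of 3 arrays, 18 arrays per strain. The labels call the replicates biological and do not say that each is a separate animal, so the errors and p-values measure the spread between these arrays, which may be technical. Values are the deposited log2 expression values per probe set, and a difference of 1 unit is a doubling.

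Cells take up transferrin-bound iron through the transferrin receptor, move it out of the endosome through the divalent metal transporter, store the surplus in ferritin and release it through ferroportin. The iron regulatory proteins, encoded by Aco1 and Ireb2, bind short hairpins in messenger RNA when iron is scarce, which stabilises Tfrc mRNA and blocks translation of ferritin. Heme synthesis begins with 5-aminolevulinate synthase, in a form used by all tissues (Alas1) and a form of red cell precursors (Alas2), and heme oxygenase opens the heme ring and frees its iron.

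Array medians lay between 5.66 and 5.77, and among replicate pairs the closest were replicates 1 and 2 of the F344 controls at 1 d, whose root mean square log2 difference was 0.163 beside 0.232 for the next pair. Replicate 1 of the Cop NMU arrays at 30 d stood apart from the others of its group, at 0.596 and 0.645, so results of that group are given with and without it. Markers of the labelled tissue were present: the milk protein genes Csn1s1 and Lalba, the keratin genes Krt8, Krt18 and Krt14, and the fat cell gene Adipoq lay above the 40th percentile on all 36 arrays, and Csn2 did so on 33. Of 34 erythroid entries, 23 were on the array and 10 of those passed the filter on dim probe sets. The other 13, among them Klf1, Gata1, Ahsp and Rhag, did not.

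Tfrc encodes the transferrin receptor. The 60 bases before its annotated start are shown because Tfrc had the lowest levels of its range in both groups collected 30 d after NMU. They are RefSeq sequence of build GRCr8, chr11:81690319-81690378 on the minus strand, with a pattern of the kind bound by the CREB and AP-1 families in capitals.
Tfrc: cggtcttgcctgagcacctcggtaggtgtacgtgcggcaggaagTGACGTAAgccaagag
The letters TGACGTAA lie at -16 to -9 and, searched on both strands, occur in 0.332% of 33469 RefSeq windows of the same length. A match describes the sequence and is not a measured site.

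In F344 rats at 30 d the Tfrc values were 10.01, 9.05 and 10.14 in controls and 7.96, 8.07 and 8.21 after NMU. Every NMU array lay below every control, and the difference was -1.65 (SE 0.24). Control replicate 2 was about 1 unit below the other controls and still above all NMU arrays. The second probe set of the gene gave -2.05 (SE 0.28), with 8.20, 6.94 and 7.88 in controls against 5.55, 5.30 and 6.04 after NMU.

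Cop rats at 30 d had Tfrc values of 8.76, 9.70 and 8.70 in controls and of 8.18, 8.02 and 8.32 after NMU, a difference of -0.88 (SE 0.24) without overlap. The second probe set gave -1.23. Without NMU replicate 1 these differences were -0.89 and -1.29. Cop control replicate 2 was the highest array of this pair of groups on both probe sets. Without it the difference was -0.56, and it ranged from -1.06 to -0.56 as each array was left out.

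At 6 h the direction in Cop rats was the same: controls read 9.94, 10.47 and 9.69, and NMU arrays 9.18, 8.80 and 8.93, a difference of -1.06 (SE 0.24). F344 rats at 6 h went from 9.25, 9.32 and 9.47 to 9.12, 8.91 and 9.21, a difference of -0.26 (SE 0.24), with every NMU array below every control. Without Cop control replicate 2, the highest array, the difference in Cop was -0.84.

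At 1 d the strains moved apart. In F344 rats Tfrc went from 9.61, 9.61 and 9.76 to 9.41, 9.17 and 8.76 (-0.55, SE 0.24), and in Cop rats from 9.61, 9.61 and 9.08 to 10.05, 9.93 and 9.83 (0.50, SE 0.24). No array of either pair of groups overlapped, and the second probe set gave -0.44 and 0.62. The response of Cop minus that of F344 was 1.05 on both probe sets.

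Ordered by group mean, Tfrc was highest in Cop controls at 6 h (10.03 ± 0.40, SD, n = 3) and Cop NMU arrays at 1 d (9.94 ± 0.11). It was lowest in the NMU groups at 30 d of Cop (8.17 ± 0.15) and F344 (8.08 ± 0.13). Of the 11 steps between neighbours in this order, only that above the 2 lowest groups, 0.80, exceeded the sum of both neighbours' SDs. Tfrc is needed by dividing cells, and a score of 12 cell division markers (mean deviation from each marker's mean) was read beside it. In F344 at 30 d this score was 1.90, -0.09 and 1.35 in controls and -0.79, -0.16 and -0.49 after NMU. In Cop at 6 h it ran the other way to Tfrc, from -0.15, 0.15 and 0.20 in controls to 0.91, 1.46 and 1.35 after NMU. In Cop at 30 d it was 0.03, 0.86 and 0.77 in controls and -0.59, -0.52 and -0.30 after NMU. Over the 36 arrays the correlation of Tfrc with this score was 0.22. With the other marker scores it ran from -0.53 (endothelium) to 0.43 (lymphocytes). In these bulk samples fewer cells of a type and less RNA per cell cannot be told apart.

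Markers of other tissue moved with the same contrasts. A score of 15 skeletal muscle genes was -4.39, -0.41 and -3.16 in F344 controls at 30 d and 1.48, 1.08 and -0.25 after NMU. In Cop at 6 h it was -1.03, -3.50 and -0.96 in controls and -0.35, 0.87 and 0.92 after NMU. A score of 6 lymphocyte markers was 1.26, 0.75 and 0.98 in Cop controls at 30 d and 1.05, -3.46 and -3.30 after NMU. The part of these markers in the Tfrc differences was not tested.

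Slc11a2 encodes the divalent metal transporter DMT1, which carries iron out of the endosome. Its brighter probe set was highest in F344 controls at 1 d (9.09, 9.09 and 8.82) and lowest in Cop controls at 30 d (7.91, 7.29 and 7.71). Steps larger than the sum of both SDs came after the third group (0.16) and after the seventh (0.34), so that all 6 h and 1 d groups except Cop NMU at 6 h stood above all 30 d groups.

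In Cop rats at 6 h Slc11a2 went from 8.65, 8.58 and 8.55 to 8.06, 8.21 and 8.18 after NMU, a difference of -0.44 (SE 0.14), and its second probe set gave -0.42. At 30 d the probe sets disagreed in Cop rats. The brighter one gave 0.45 (SE 0.14), from 7.91, 7.29 and 7.71 to 8.11, 8.28 and 7.88 with overlap, and the other gave -0.31 (SE 0.20), from 7.21, 6.40 and 6.66 to 6.47, 6.74 and 6.13. Without NMU replicate 1 they gave 0.44 and -0.32. No direction is given for Slc11a2 in that comparison. In F344 rats the brighter probe set differed by -0.16, -0.15 and -0.15 at 6 h, 1 d and 30 d, each about 1 SE.

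The probe set shared by Fth1, the ferritin heavy chain, and Fth1-ps5 had the narrowest range. All 36 arrays lay between 13.58 and 13.88, and the group means spanned 0.19 with a pooled SD of 0.066. No step in the order of its groups exceeded the SDs of its neighbours. NMU differences ran from -0.08 to 0.10 (SE 0.060 each). These values lie close to the highest of any probe set, 14.31, and whether differences are compressed there was not tested. Signal of the gene and its pseudogene cannot be separated here.

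Slc40a1 encodes ferroportin, the iron exporter, and has 3 probe sets. In Cop rats at 6 h the brightest went from 7.80, 8.07 and 7.81 in controls to 8.35, 8.74 and 8.73 after NMU, a difference of 0.71 (SE 0.15) without overlap. The other probe sets gave 0.60 (SE 0.19) and 0.75 (SE 0.32). F344 arrays at 6 h differed by -0.02, 0.10 and 0.31 on the same probe sets, with overlap on each.

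At 1 d Cop NMU arrays read 7.93, 8.18 and 8.08 against 7.83, 7.82 and 7.51 in controls (0.35, SE 0.15), and the other probe sets gave 0.35 and -0.02 with overlap. At 30 d the sign in Cop rats turned on the brightest probe set, from 8.22, 8.33 and 8.38 to 7.74, 8.0 and 8.06 (-0.38, SE 0.15). The dimmer probe sets gave -0.08 and 0.28 there, so the 3 do not share a direction. Without NMU replicate 1 the differences on the 3 probe sets were -0.28, 0.10 and 0.40. In F344 rats at 30 d all 3 were higher after NMU, by 0.31, 0.58 and 1.5. The last of these, on the dimmest probe set, came from 5.18, 4.84 and 5.43 in controls and 7.06, 7.28 and 5.59 after NMU, with NMU replicate 3 well below the others. On the brightest probe set the 8 highest groups, from F344 NMU at 30 d (8.68 ± 0.30) down to Cop controls at 30 d (8.31 ± 0.083), stood 0.24 above the rest. The remaining groups were all Cop, down to Cop controls at 1 d (7.72 ± 0.18).

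**Figure D1:**
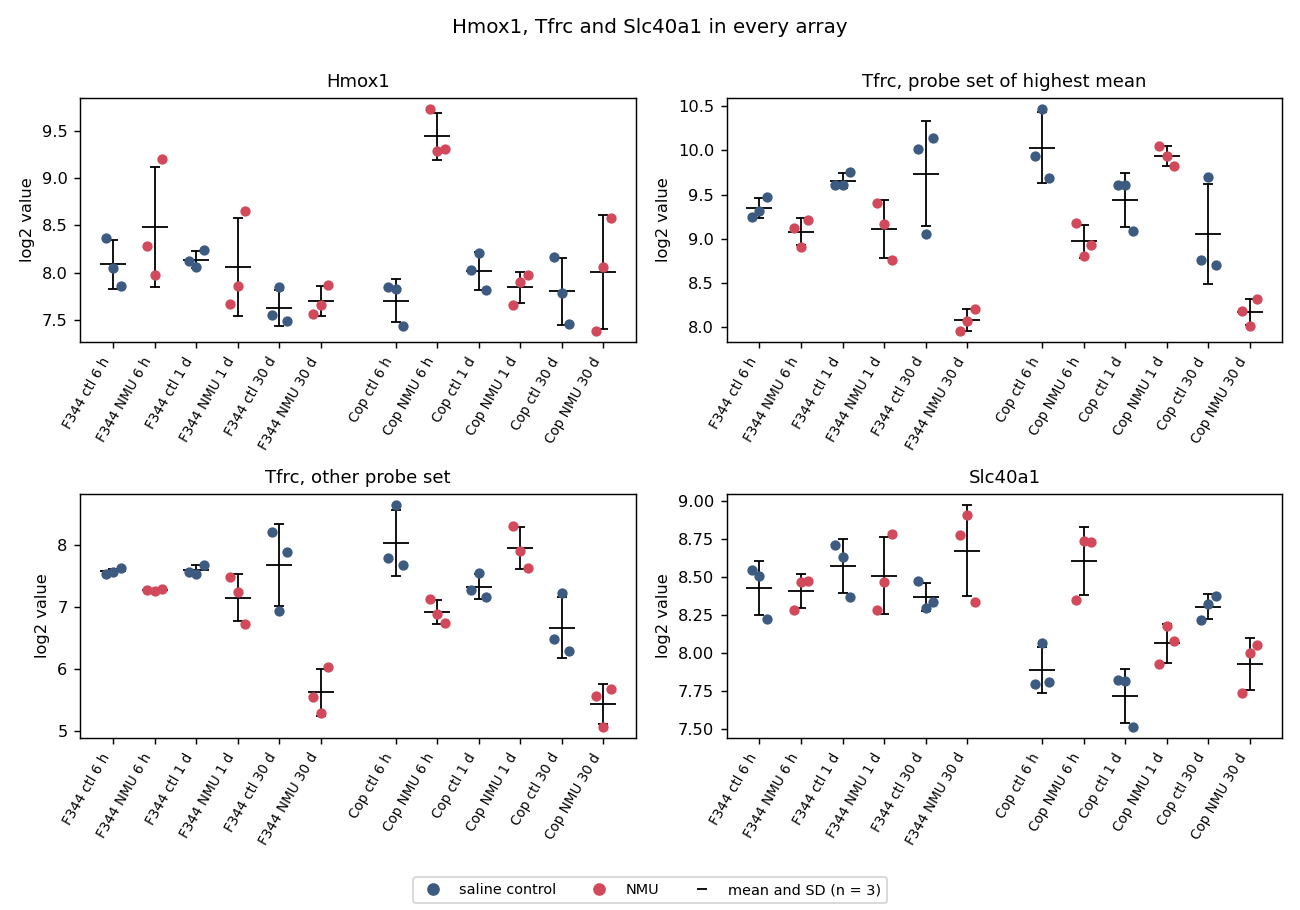
Log2 values of Hmox1, both Tfrc probe sets and the brightest Slc40a1 probe set in each of the 36 arrays, by strain, treatment and time, with the mean and SD of each group (n = 3). Hmox1 is highest in Cop 6 h after NMU, at 9.28 to 9.73, and both Tfrc probe sets are lowest 30 d after NMU in both strains.

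Alas1 encodes the housekeeping form of the first enzyme of heme synthesis. F344 controls read 8.97, 9.15 and 9.22 at 6 h, 9.60, 9.76 and 9.49 at 1 d, and 8.23, 7.95 and 8.17 at 30 d. Cop controls read 8.75, 8.62 and 8.69 at 6 h, 8.88, 8.98 and 8.71 at 1 d, and 8.02, 7.66 and 8.11 at 30 d.

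All 30 d control arrays were thus below all earlier control arrays of Alas1, by 1.04 (SE 0.10) over both strains. Cop controls were below F344 controls by 0.43 at 6 h and 0.76 at 1 d without overlap, and by 0.19 with overlap at 30 d. The only NMU difference without overlap was in Cop rats at 6 h, where the arrays read 8.06, 7.98 and 7.99, a difference of -0.68 (SE 0.17) from their controls. That brought the group to the level of the 30 d groups, and the single step in the order larger than both SDs (0.57) separated these 5 groups from the other 7. The difference in Cop at 6 h stayed between -0.71 and -0.65 as each array was left out.

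**Figure D2:**
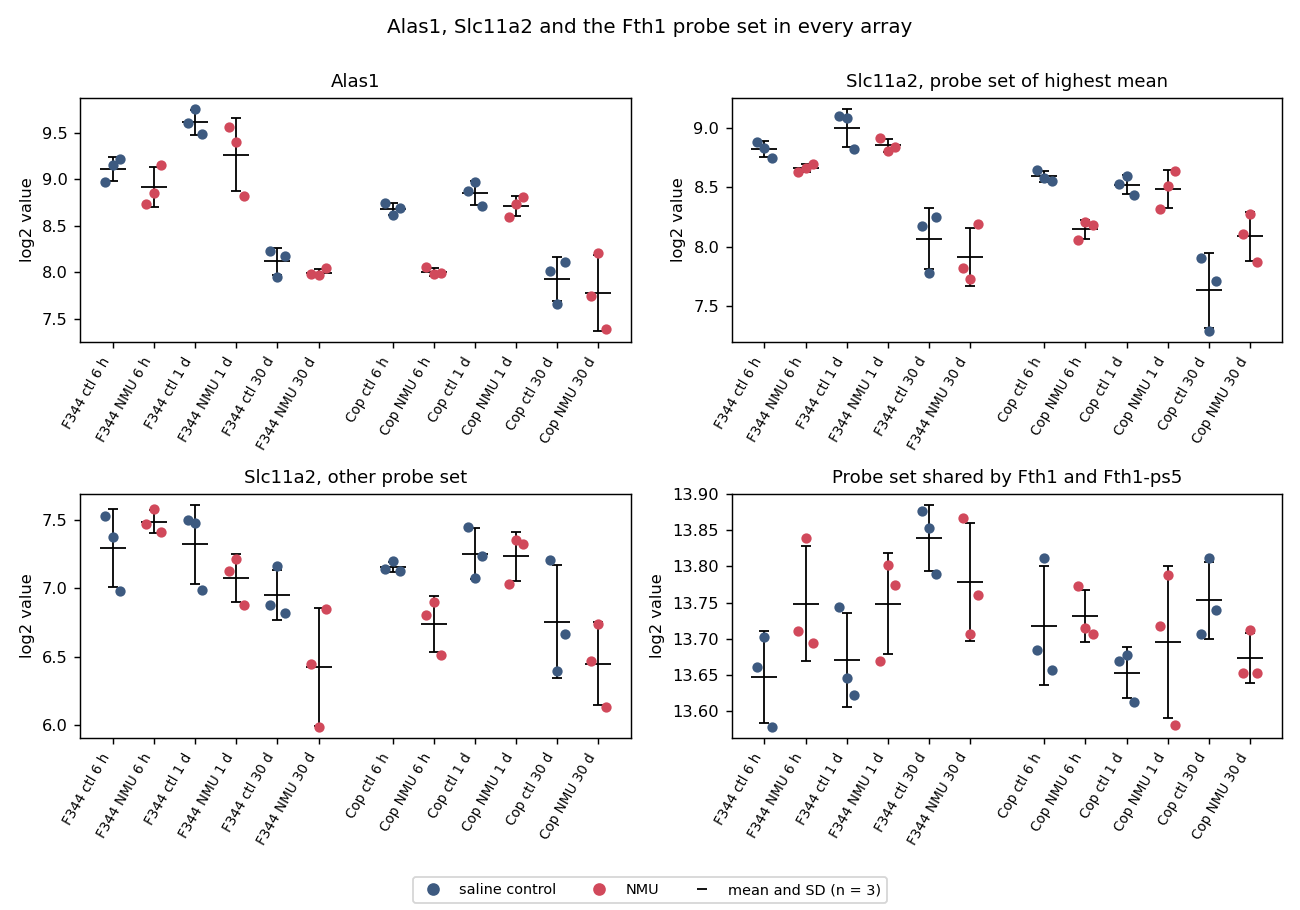
Log2 values of Alas1, both Slc11a2 probe sets and the probe set shared by Fth1 and Fth1-ps5 in each of the 36 arrays, with the mean and SD of each group (n = 3). Alas1 and the brighter Slc11a2 probe set are lower in the 30 d groups and in Cop 6 h after NMU, and the Fth1 axis spans only 13.58 to 13.88.

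Alas2 encodes the erythroid form of the enzyme and was close to the filter, above the 40th percentile on 22 of 36 arrays. In Cop rats at 6 h it went from 4.55, 4.77 and 4.27 in controls to 6.41, 5.90 and 5.56 after NMU, a difference of 1.43 (SE 0.28) without overlap. All 3 of these controls lay below their array's 40th percentile, so the size of the difference rests on a dim level. F344 arrays at 6 h read 4.92, 5.85 and 5.22 in controls and 5.30, 5.50 and 5.65 after NMU, which overlap.

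At 1 d the F344 values of Alas2 went from 5.22, 5.37 and 5.06 to 4.60, 4.18 and 4.62 (-0.75, SE 0.28), and Cop arrays, already at 4.32, 4.45 and 4.14 in controls, read 4.38, 4.24 and 4.47 after NMU. At 30 d Cop controls read 6.42, 4.98 and 5.60 and Cop NMU arrays 5.80, 6.57 and 6.89, a difference of 0.76 (SE 0.28) with overlap, and of 1.07 without NMU replicate 1. The 4 lowest groups were Cop controls at 6 h and 1 d and the NMU arrays of both strains at 1 d. They stood 0.69 below the other 8, the only step larger than both SDs. Every array of these 4 groups lay below the percentile that the filter uses. The sizes of this step and of the F344 difference at 1 d therefore rest on dim levels.

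Hbb encodes beta globin, the heme-binding chain of adult hemoglobin, and had the widest range of all 8 genes, from 7.31 to 12.23. The 110 bases before its annotated start are printed because Hbb had the largest differences. They are RefSeq sequence of build GRCr8, chr1:167663722-167663831 on the minus strand. Capitals mark the letters of the CACCC box, of the CCAAT box, found on either strand, and of the TATA-type box ATAAAA, which are textbook parts of globin promoters.
Hbb: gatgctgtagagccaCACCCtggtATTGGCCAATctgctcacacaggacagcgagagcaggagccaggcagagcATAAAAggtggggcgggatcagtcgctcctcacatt
The CACCC box lies at -95 to -91. The CCAAT box lies at -86 to -82 on the other strand and at -81 to -77 on the same strand, and the TATA-type box at -36 to -31, with no overlap between them. Searched on both strands of all 33469 RefSeq windows of this length, the letters of the first box occur in 27.6%, of the next in 18.5% and of the last in 8.28%. Promoter entries matched 6 of the 8 genes.

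In F344 rats the Hbb group means lay between 11.08 and 11.73 in all groups but NMU at 1 d. There it went from 11.28, 11.30 and 10.66 in controls to 9.12, 7.91 and 9.43 after NMU, a difference of -2.26 (SE 0.30). All NMU arrays lay more than 1 unit below all controls. At 6 h the F344 arrays overlapped (11.27, 11.69 and 10.99 against 11.36, 11.85 and 11.76), and at 30 d the NMU arrays, at 11.71, 11.70 and 11.78, were just above controls at 11.09, 11.59 and 11.25 (0.42, SE 0.30).

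Cop controls were lower at the early times. At 6 h Hbb read 9.64, 9.94 and 9.51 in controls and 12.16, 11.55 and 11.57 after NMU, a difference of 2.06 (SE 0.30). This put the Cop NMU arrays at the F344 level, which Cop controls were 1.62 below. At 1 d Cop controls had fallen to 8.67, 8.43 and 7.99 and Cop NMU arrays to 7.31, 7.38 and 7.59, a difference of -0.94 (SE 0.30). At 30 d Cop controls read 12.15, 10.94 and 11.43 and NMU arrays 11.79, 11.84 and 12.23, which overlap (0.45, and 0.53 without NMU replicate 1).

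Among controls, Cop was thus 6.57-fold below F344 at 1 d and 3.07-fold below at 6 h, while the 30 d arrays of the strains overlapped. F344 controls did not separate by time, and Cop controls at 30 d were 8.81-fold above those at 1 d. In the order of group means, the 8 highest groups lay between 11.08 ± 0.36 (F344 controls at 1 d) and 11.95 ± 0.24 (Cop NMU at 30 d), and no step among them exceeded the SDs. Below them came Cop controls at 6 h (9.70 ± 0.22), after a step of 1.38, then F344 NMU at 1 d (8.82 ± 0.81), Cop controls at 1 d (8.37 ± 0.34) and, after a step of 0.94, Cop NMU at 1 d (7.43 ± 0.14).

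Globin probe sets that match several genes moved with Hbb. A probe set shared by the alpha globin genes Hba-a1 and Hba-a2 read 12.26, 12.25 and 11.69 in F344 controls at 1 d and 10.03, 9.21 and 10.47 after NMU. In Cop at 6 h it read 10.81, 11.23 and 10.79 in controls and 13.31, 12.69 and 12.69 after NMU. Neither pair of groups overlapped. Over the 36 arrays Hbb correlated with the 3 alpha globin probe sets at 0.98 to 0.99. With the probe sets shared by the beta globin genes Hbbl1 and Hbb-bs it correlated at 0.99 and 0.87. Whether the Hbb probe set also reads those genes was not tested. The probe set of Hba-a3 moved less, from 7.02, 6.99 and 7.47 to 7.92, 7.68 and 8.08 in Cop at 6 h.

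The score of the 10 erythroid marker genes that passed the filter, which holds neither Hbb nor Alas2, had group means between -0.06 and 0.09, and its correlation with Hbb was -0.04. It was -0.05 in Cop controls and -0.06 in Cop NMU arrays at 6 h, and -0.02 in F344 controls and 0.09 in F344 NMU arrays at 1 d. The 10 include Hbe1, which passed the filter only through the 3 F344 NMU arrays at 1 d. It was 1.84 above controls there and so raises the score of that group. The anion exchanger gene Slc4a1, a red cell membrane marker, lay between 5.0 and 5.87 over all 36 arrays. The means of Hbe1, Tspan33, Gfi1b, Xk, Slc4a1, Ank1, Sptb and Epor over the arrays were 4.21 to 5.76, about the array medians or below. Genes this dim may not show a change, so nothing is drawn from the score. The part of blood content in the globin differences was not tested.

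**Figure D3:**
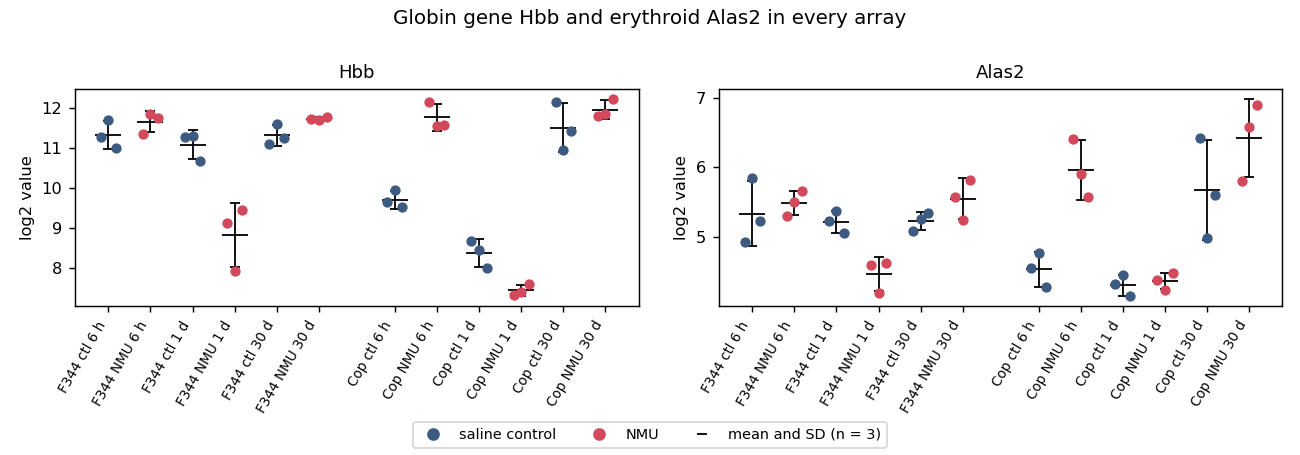
Log2 values of Hbb and Alas2 in each of the 36 arrays by strain, treatment and time, with the mean and SD of each group (n = 3). Both genes are higher after NMU than in controls in Cop at 6 h and lower after NMU in F344 at 1 d, and Cop controls lie below F344 controls at 6 h and 1 d.

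Hmox1 encodes the inducible heme oxygenase, a target of the stress-response factor Nrf2. In Cop rats at 6 h it went from 7.85, 7.83 and 7.44 in controls to 9.73, 9.28 and 9.31 after NMU, a difference of 1.73 (SE 0.27), with every NMU array more than 1 unit above every control. In F344 at 6 h the values were 8.37, 8.05 and 7.86 in controls and 8.29, 7.98 and 9.20 after NMU, a difference of 0.40 (SE 0.27). NMU replicate 3 was high there and the other NMU arrays lay within the controls.

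At 1 d and 30 d the Hmox1 arrays overlapped in both strains, with differences from -0.17 to 0.20. A single array stood out in F344 NMU at 1 d (8.65 beside 7.67 and 7.86), and the Cop NMU arrays at 30 d were spread over 7.38, 8.06 and 8.58. Without the first of these, replicate 1, the Cop difference at 30 d was 0.52 in place of 0.20. The Cop NMU group at 6 h (9.44 ± 0.25) was 0.95 above the next group, F344 NMU at 6 h (8.49 ± 0.63). That was the only step larger than both SDs, and the other groups lay between 8.49 and 7.63.

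Inflammatory cell markers moved at the same time. Of 5 neutrophil entries, S100a8 and S100a9 passed the filter, Csf3r and Cxcr2 were on the array and did not, and Mpo was not found. The score of S100a8 and S100a9 was -0.27, -0.79 and -0.05 in Cop controls at 6 h and 3.10, 1.72 and 1.61 after NMU. In F344 at 6 h it was 0.22, 0.02 and -0.27 in controls and 2.51, 2.13 and 1.92 after NMU, as high as in Cop, where Hmox1 was higher. A score of 10 macrophage markers was -0.36, 0.05 and -0.24 in Cop controls at 6 h and 0.24, 0.35 and 0.52 after NMU, and in F344 it overlapped (-0.41, -0.21 and -0.30 against 0.06, -0.50 and 0.04). Hmox1 correlated at 0.74 with the neutrophil score and at 0.41 with the macrophage score over the 36 arrays, which share groups. S100a8 and S100a9 lay above the 40th percentile on only 6 and 13 of the 36 arrays. A gene kept through few arrays is high on those arrays, so the height of this score partly follows from the filter. The mean neutrophil score was 2.19 in F344 and 2.14 in Cop NMU arrays at 6 h and negative in all other groups. The correlation of 0.74 therefore largely sets those groups against the rest. Their part in the Hmox1 difference was not tested.

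Set against the whole array, the counts of these genes past the test threshold (limma, adjusted p under 0.05 over 20749 probe sets) read as follows. Since the genes were selected on these data, nothing is drawn from the counts. In Cop rats all 7 genes with a probe set of their own passed at 6 h, where 6.57% of probe sets passed, 0 at 1 d, where 0.761% did, and 2 at 30 d (Tfrc and Slc11a2), where 9.9% did. In F344 rats 0 passed at 6 h (0.622% of probe sets), 1 at 1 d (Hbb, 0.983%) and 1 at 30 d (Tfrc, 3.29%). For the response of Cop minus that of F344, 1 passed at 6 h (Hbb, 0.877%), 0 at 1 d (0.207%) and 0 at 30 d, where 0% of probe sets passed with limma and 678 had an unadjusted p under 0.05. Cop against F344 over controls gave 5 of 7, all lower in Cop (26.1% of probe sets), and 30 d against earlier controls gave 4 of 7 (30.1%). The comparisons within a strain and time share controls with the strain differences.

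The alternative fits reuse the arrays on which the genes were selected, so a call that is kept is not independent evidence. With each gene read by its brightest probe set, the Cop 6 h calls of Hmox1, Hbb, Alas2 and Slc40a1 were made in every alternative fit tried. The other 2 Slc40a1 probe sets were not called there. Tfrc in Cop at 6 h lost its call without control replicate 2, and Alas1 without control replicate 1. Slc11a2 lost it there without any 1 of the 6 arrays and with the replicate number as a block. The F344 calls of Hbb at 1 d and Tfrc at 30 d were lost only when the compared arrays alone were fitted. In Cop at 30 d the Tfrc call was lost in that fit and without control replicate 2 or NMU replicate 2 or 3. The Alas2 call of Cop against F344 over controls was made in few fits: it was lost in 18 of 23, the replicate block among them, and the difference ranged from -0.55 to -0.31 as each array was left out.

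The response differences between strains at 6 h were 1.73 (SE 0.42) for Hbb, 1.34 (SE 0.38) for Hmox1, 1.27 (SE 0.39) for Alas2 and 0.73 (SE 0.21) for Slc40a1. They were -0.80 (SE 0.34) for Tfrc, -0.48 (SE 0.23) for Alas1 and -0.28 (SE 0.20) for Slc11a2. At 6 h the Cop response thus lay further from 0 than the F344 response for each of these 7 genes. At 1 d the difference was 1.32 (SE 0.42) for Hbb, because F344 was lower by more, and 0.81 (SE 0.39) for Alas2. The Alas2 values at 6 h and 1 d draw on groups that were dim for this gene, as given above, so their sizes are uncertain. At 30 d the response difference was -0.68 (SE 0.21) for Slc40a1, 0.77 (SE 0.34) for Tfrc and 0.03 (SE 0.42) for Hbb. The Hbb call at 6 h was lost in the fit with the replicate number as a block and whichever of 11 of the 12 arrays was left out.

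**Figure D4:**
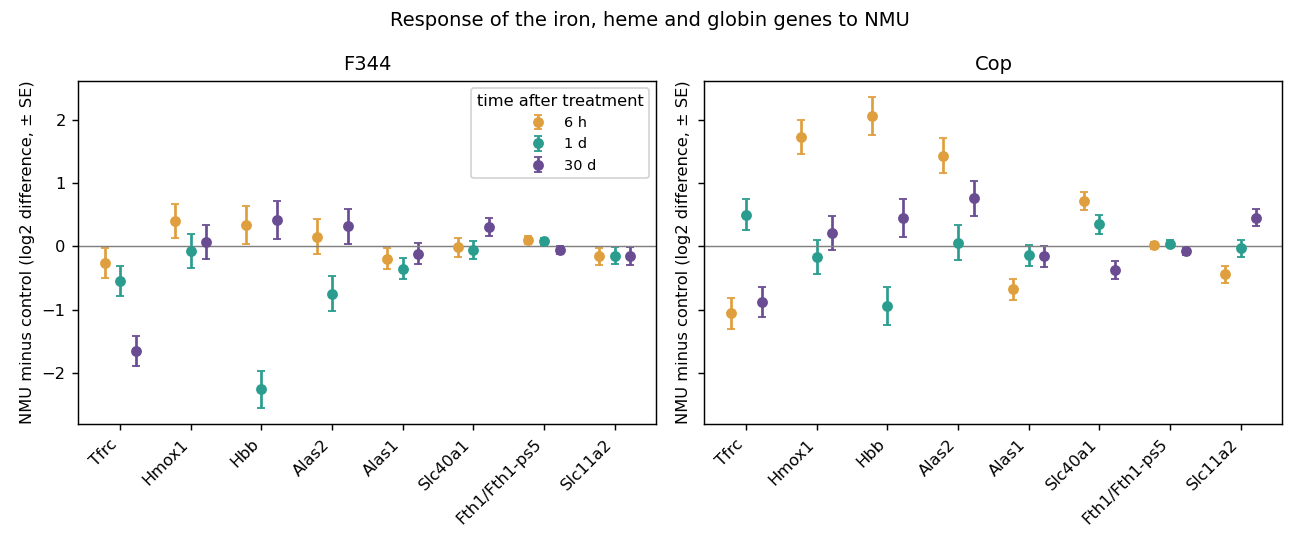
Difference between NMU and control (log2, with its standard error) for each gene, read by its brightest probe set, in F344 and Cop rats at 6 h, 1 d and 30 d. The Cop 6 h points of Hmox1, Hbb, Alas2 and Slc40a1 lie above 0 and those of Tfrc, Alas1 and Slc11a2 below it, and in F344 the points farthest from 0 are Hbb at 1 d (-2.26) and Tfrc at 30 d (-1.65).

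Over controls, averaged over the times, Cop was below F344 by 1.38 (SE 0.17) for Hbb, 0.48 (SE 0.085) for Slc40a1, 0.46 (SE 0.095) for Alas1, 0.42 (SE 0.16) for Alas2 and 0.38 (SE 0.080) for Slc11a2. Hmox1 (-0.11), Tfrc (-0.07) and the Fth1 probe set (-0.01) differed by less than 1 SE, and the second Tfrc probe set by -0.27 (SE 0.16). The second Slc11a2 probe set differed by -0.13 (SE 0.12), and the other Slc40a1 probe sets by -0.43 (SE 0.11) and -0.11 (SE 0.19).

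These averages join times that differ. For Alas2 the difference of Cop minus F344 controls was -0.80 at 6 h and -0.91 at 1 d without overlap, and 0.44 at 30 d with overlap. All Cop controls at 6 h and 1 d lay below the filter's percentile for Alas2, so the sizes of those differences rest on dim levels. For Tfrc the difference of Cop minus F344 controls was 0.69 at 6 h without overlap, and -0.22 at 1 d and -0.68 at 30 d with overlap. Skeletal muscle markers differed between the same controls: their score was 1.70 to 2.69 in F344 and -3.50 to -0.73 in Cop over 6 h and 1 d. Its part in the strain differences was not tested.

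Controls at 30 d were above the earlier ones by 1.29 (SE 0.18) for Hbb and 0.60 (SE 0.17) for Alas2, and these differences lay in Cop rats. Within F344 controls the 30 d arrays overlapped the earlier ones for both genes. Without Cop control replicate 1 at 30 d the Alas2 difference was 0.41. The earlier Cop controls were dim for Alas2, as given above, so the size of its difference is uncertain. Slc11a2 at 30 d was lower by 0.88 (SE 0.085), by 0.75 against 6 h in F344 and 0.96 in Cop, without overlap in either strain. Its second probe set gave -0.40 (SE 0.12), with overlap.

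Pairs of the genes varied together over the 36 arrays, and part of that comes from groups they share. Hbb and Alas2 correlated at 0.86, and at 0.73 once each group's mean was removed. For Alas1 and Slc11a2 the values were 0.91 and 0.58. The probe sets of Tfrc agreed at 0.96 and 0.88, and those of Slc11a2 at 0.74 and 0.60. Tfrc ran against Alas2 over all arrays (-0.60) but not within groups (-0.08).

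The genes most like each of them over the 36 arrays, by Pearson correlation of log2 values, were ranked among probe sets that carry 1 gene symbol, 1 per gene. Globin probe sets shared by several genes are therefore not in the ranking, and some correlated more highly with Hbb, as given above, and with Alas2. Alas1 was closest to Alad (0.96), which encodes the next enzyme of heme synthesis, Timm17a (0.95) and Mrap (0.95). Slc11a2 was closest to the fat synthesis genes Dgat1 (0.93) and Acsl1 (0.93) and to Mcrip2 (0.92). Hbb was closest to Alas2, Sncg (0.81) and Hba-a3 (0.79), and Alas2 to Hbb, Hba-a3 (0.78) and the water channel gene Aqp1 (0.77). Hmox1 was closest to Tfpi2 (0.82), Glrx (0.80) and Adm (0.80). Tfrc was closest to Farsb (0.79), Stip1 (0.78) and Cct6a (0.77), and Slc40a1 to Casp12 (0.76), Akr1c3 (0.74) and Akr1c19 (0.74). The Fth1 probe set was closest to Eps8l2 (0.75), Sh3yl1 (0.71) and Ddb2 (0.69).

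Other genes of the pathway were read through 7 lists with 75 tested genes, none of them among the 8. The lists were chosen with earlier results of these data known, so the p-values given for their genes are not an independent test. In Cop rats at 6 h, 7 of the 75 changed, 4 up and 3 down, where 6.57% of all probe sets passed. Among uptake genes 3 of 15 rose: Cybrd1, a ferric reductase, by 1.31 (SE 0.19, limma adjusted p = 4.88e-05), the metal importer Slc39a8 by 1.13 (adjusted p = 0.0134) and the ferritin receptor Scara5 by 0.84 (adjusted p = 0.0244). The heme carrier Slc46a1 rose by 0.77 (adjusted p = 0.0212). Aco1, which encodes an iron regulatory protein, changed by -0.53 (adjusted p = 0.0113), Alad by -0.57 (adjusted p = 0.0336) and Me1, an NADPH-forming enzyme listed under Nrf2 targets, by -2.03 (adjusted p = 0.000259).

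The list medians at 6 h in Cop were 0.13 for iron transport (3 of 15 changed), 0.10 for heme synthesis (1 of 11), 0.28 for heme breakdown, binding and export (1 of 11) and 0.23 for Nrf2 targets (1 of 9, and that one fell). They were 0.04 for iron storage and sensing (1 of 10), -0.16 for iron-sulfur cluster assembly (0 of 9) and -0.09 for erythroid genes (0 of 10), beside -0.0016 over all tested probe sets. The other Nrf2 targets Srxn1 (0.56), Nqo1 (0.50) and Gclm (0.27) did not pass. Slc39a8, Scara5, Slc46a1 and Alad each lost their call without control replicate 1 and without NMU replicate 2, and Cybrd1, Aco1 and Me1 kept theirs in every setting tried.

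Cybrd1 was the single list gene whose response differed between strains at 6 h, by 1.47 (SE 0.27, limma adjusted p = 0.00294). Cop arrays went from 7.18, 7.39 and 7.41 to 8.52, 8.73 and 8.67, and F344 arrays from 7.52, 7.88 and 7.52 to 7.51, 7.35 and 7.61. In F344 at 6 h Steap2, a metalloreductase, was the 1 gene of 75 to change (1.07, SE 0.23, adjusted p = 0.0262), a call lost without control replicate 2 or 3 or NMU replicate 1 or 2.

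At 1 d, 1 gene changed in each strain. In Cop it was Me1 (-1.87, SE 0.33, limma adjusted p = 0.00412). In F344 it was the embryonic globin Hbe1 (1.84, SE 0.21, adjusted p = 1.08e-06), with 5.29, 5.86 and 6.13 after NMU and 4.21, 3.91 and 3.65 in controls. Hbe1 passed the filter only through those 3 NMU arrays, so it had to differ. It moved opposite to Hbb in the same arrays. No list gene differed in response between strains at 1 d or 30 d by limma, and 4 and 3 of 75 had an unadjusted p under 0.05.

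At 30 d, 3 of 75 changed in F344, where 3.29% of all probe sets passed. These were Steap1 by -1.19 (limma adjusted p = 0.0173), the iron importer Slc39a14 by -0.82 (adjusted p = 0.0247) and Scara5 by 0.90 (adjusted p = 0.0288). In Cop 9 of 75 changed, 5 up and 4 down, where 9.9% passed. Without NMU replicate 1, which stood apart, 16 of 75 changed, and the probe sets called went from 2055 to 3811. The mitochondrial iron importer Slc25a28 rose by 0.57 (adjusted p = 0.00217), Scara5 by 0.71 (adjusted p = 0.0498), the hemoglobin scavenger receptor Cd163, also a macrophage marker, by 1.21 (adjusted p = 0.015), the iron-sulfur gene Isca1 by 0.65 (adjusted p = 0.0115) and the erythroid regulator Tal1 by 0.55 (adjusted p = 0.0145). Ireb2, which like Aco1 encodes an iron regulatory protein, changed by -0.60 (adjusted p = 0.0301), Xk by -0.76, Tmem14c by -0.41 and Fdx1 by -0.34. The macrophage score, which includes Cd163 itself, was 0.15, 0.04 and 0.05 in Cop controls at 30 d and 0.12, 0.47 and 1.04 after NMU. The part of macrophages in the Cd163 difference was not tested. All of these 30 d calls were lost when the compared arrays alone were fitted. In F344 all 3 were also lost without control replicate 1 or 3 or NMU replicate 1 or 2, and in Cop all but Slc25a28 without NMU replicate 3.

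Between the controls of the strains 22 of 75 differed, 5 higher and 17 lower in Cop, where 26.1% of all probe sets passed. The skeletal muscle score of these controls differed as given above, and its part in these counts was not tested. Heme synthesis genes were lower in Cop in 5 of 11 cases, with Alad at -0.58 (SE 0.096, limma adjusted p = 3.56e-05), Uros at -0.35 and Urod at -0.26, and a list median of -0.20 beside 0.02 over all probe sets. Iron-sulfur assembly had 5 lower and 1 higher of 9, with Isca1 at -1.62 (adjusted p = 2.76e-14). Aco1 was lower by 0.51. The iron-binding secreted protein Lcn2 was 5.92 higher in Cop (SE 0.21, adjusted p = 6.34e-18), the largest difference of any list gene in this comparison.

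Controls at 30 d differed from earlier ones in 31 of 75 genes, 8 higher and 23 lower, where 30.1% of all probe sets passed. In F344 controls the skeletal muscle score went from 1.70 to 2.69 at the earlier times to -4.39, -0.41 and -3.16 at 30 d. The mean score of the luminal markers went from -0.80 at 6 h and -0.67 at 1 d to 1.10 at 30 d in F344 controls, and was 0.47, 0.60 and 0.70 in Cop controls. Their part in these counts was not tested. Lower at 30 d were 6 of 11 heme synthesis genes (Alad by -0.97, SE 0.10, limma adjusted p = 1.91e-08), 4 of 11 heme breakdown genes, 5 of 9 iron-sulfur genes and 6 of 9 Nrf2 targets (Me1 at -2.43 and Nqo1 at -1.15). Aco1 was lower by 1.07 (SE 0.080, adjusted p = 3.37e-11). Higher at 30 d were 5 of 15 transport genes, among them Lcn2 at 1.12, Slc39a14 at 0.89, the plasma ferroxidase Cp at 0.76 and Slc22a17 at 0.58. Of the erythroid list 0 of 10 passed by limma, 1 of them with an unadjusted p under 0.05, while Hbb and Alas2 were higher in Cop at 30 d. Most of these 10 were dim, as given above.

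**Figure D5:**
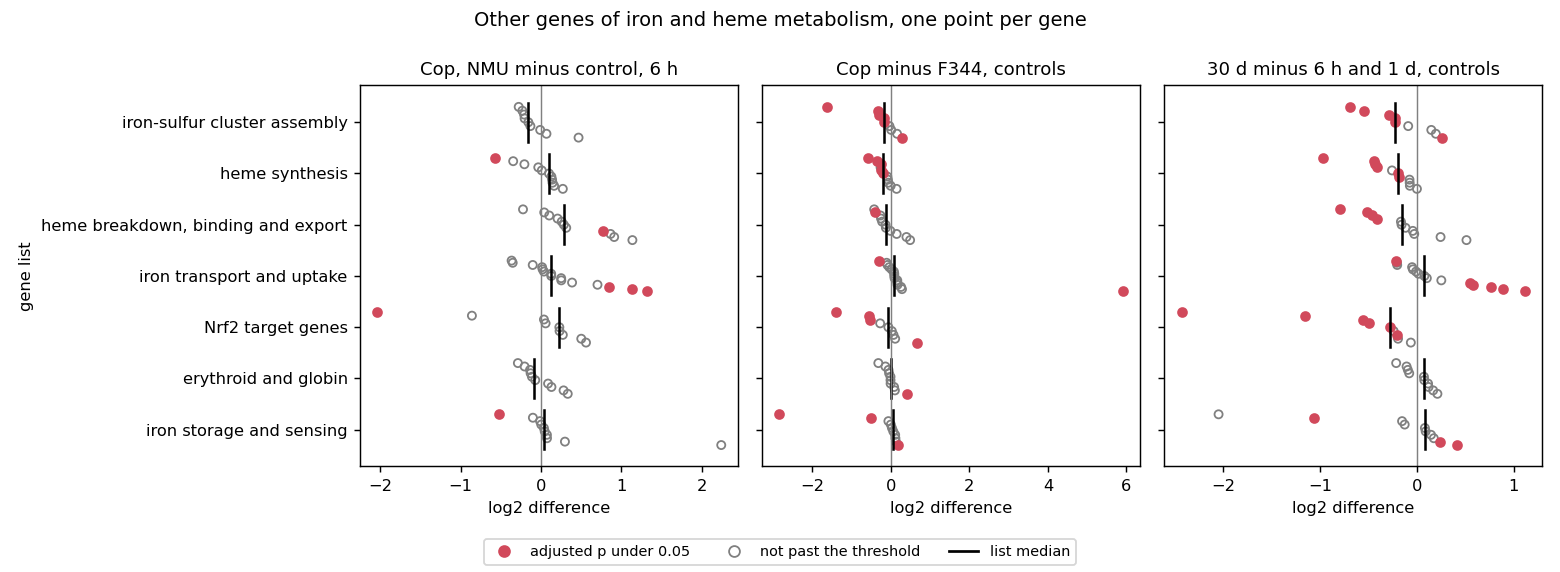
Log2 difference of each of the 75 list genes, 1 point per gene, for NMU in Cop at 6 h, Cop against F344 over controls and 30 d against earlier controls. Filled points passed an adjusted p under 0.05 and the black line is the list median. In the right panel the filled heme synthesis points all lie below 0, the lowest at -0.97.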

How the data were processed

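Affymetrix arrays measured mammary gland RNA of Cop and F344 rats. Per the labels, biotinylated cRNA was made from total RNA, and per the submitters' processing notes the software was GCOS. The sources used here do not give the summarisation and normalisation of probe signals. The authors' log2 expression values were used as deposited. Of 31099 probe sets, 20832 carry 1 gene symbol, 436 several and 9831 none.

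The members and gene lists were chosen with earlier results of these data known. Testing was limited to probe sets above their array's 40th percentile on 3 or more arrays (20749, with 57 manufacturer's controls left out). With limma 3.58.1 (R 4.3.3), 1 linear model with 12 group means took in the 36 arrays (trend and robust empirical Bayes, two-sided, Benjamini-Hochberg within each comparison, called at adjusted p under 0.05). Standard errors use the spread pooled over groups. Each gene was read by its tested probe set of highest mean. The script was tested on simulated data.

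Named were the 8 members, the called list genes (at most 4 of smallest p per list and comparison), and for each member the 3 genes of highest correlation. NMU and control arrays of the same number had correlated deviations from their group means in Cop, at 0.11, 0.14 and 0.44 for 6 h and 0.20, 0.42 and 0.32 for 1 d. The labels state no pairing. All of these values were above 0, and by the rule used here such replicates are taken as paired. In F344 the signs were mixed, at -0.01, 0.35 and 0.51 for 6 h and 0.25, -0.08 and 0.25 for 1 d. At 30 d the values of both strains ran from -0.35 to 0.06. The rule did not pair these other groups. The main model left the pairing out, and so do the standard errors and p-values given, while the replicate block took it in. Calls of members that the block ends are named. Alternatives were quantile normalisation, no filter, plain empirical Bayes, the compared arrays alone, the replicate block, each array left out, and other probe sets of a member. The number of arrays limits the precision.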

Additional observations from a re-analysis of the deposited data

Results flagged for a closer look

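The response of Cybrd1 to NMU at 6 h differed between the strains by 1.47 on the log2 scale (SE 0.27, limma adjusted p = 0.00294), as tested by the difference of the responses themselves. All Cop NMU arrays lay above all Cop controls, and the F344 arrays overlapped. Cybrd1 encodes a ferric reductase. The list that holds it was chosen with earlier results of these data known.

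Tfrc at 1 d moved in opposite directions in the strains. Every F344 NMU array lay below every F344 control and every Cop NMU array lay above every Cop control, on both probe sets. The response of Cop minus that of F344 was 1.05 on each probe set. Its SE was 0.34 and 0.39, and neither it nor the 1 d difference within either strain passed the test threshold. No p-value is given, since Tfrc was chosen on these data.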

How the results depend on the processing

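Counts of changed list genes, out of 75, moved under several settings. With the compared arrays alone fitted, the count went from 1 to 0 in F344 at 6 h, from 3 to 0 in F344 at 30 d, from 9 to 0 in Cop at 30 d, from 7 to 12 in Cop at 6 h and from 1 to 3 in Cop at 1 d, and for the strain difference in response from 1 to 3 at 6 h and from 0 to 1 at 1 d. In that fit 2 of all probe sets were called in F344 at 30 d and 0 in Cop at 30 d, against 683 and 2055. With the replicate number as a block the count was 0 in F344 at 6 h, 3 in F344 at 1 d, 9 in Cop at 6 h and 6 in Cop at 30 d. Quantile normalisation gave 2 in F344 at 1 d. As each array was left out, counts ranged from 0 to 2 in F344 at 6 h, 1 to 2 in F344 at 1 d, 0 to 7 in F344 at 30 d, 3 to 8 in Cop at 6 h and 1 to 16 in Cop at 30 d, and from 20 to 25 and 25 to 33 for the comparisons over controls. Among the members, the other probe set of Slc11a2 reversed the Cop difference at 30 d, from 0.45 to -0.31. Apart from single arrays left out, 457 of the members' values moved by less than 1 SD and 26 by more. Of 65 calls of named list genes, 21 were lost in at least 1 setting. The cause of these changes was not tested.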
